A study of Mus musculus with 6 samples.

Results

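*Trav9-4* (TRAV9-4 in the lists) was described in the WT and SKG libraries amplified for *Trav9*. Its members were the sequences whose V assignment listed only *Trav9-4*, of any allele, and whose J assignment listed a single *Traj* gene. There were 345852 such sequences in the WT library and 155730 in the SKG library, together 501582 of 2326610 sequences in the *Trav9* lists and of 3675237 in all 6 lists of the series. The rule used the V and J names only, so *Traj* use, functionality and genotype differences were not used to choose the members.

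The series compared pre-selection CD4 and CD8 double-positive (DP) thymocytes of WT mice on the BALB/c background with those of SKG mice, which carry a spontaneous point mutation of *Zap70*, the kinase that binds the activated T cell receptor (TCR). The mutation lowers TCR signalling. According to the paper's methods both genotypes descended from a cross of BALB/cJ with SKG mice, and the cells were sorted for lack of surface TCRβ, CD69 and CD5. The number, age and pooling of the mice are not given in the sources used here, and neither treatment nor time course was part of the design. Each genotype had 1 library for each of 3 amplicons (*Trav9*, *Trav11* and *Trav19*), so every difference below is between 2 libraries and has no replicate check. The lists hold TCRα sequences only, so the labelled cell type could not be checked against its markers.

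The TCRα chain is assembled in DP thymocytes by joining a *Trav* segment to a *Traj* segment. The locus can recombine more than once on the same allele: each new round joins a *Trav* further upstream to a *Traj* further downstream and deletes what lay between them. Early rounds use the *Traj* segments nearest to the *Trav* genes, which have the highest numbers, and later rounds reach segments with lower numbers. A rearrangement is productive when the reading frame runs through the junction without a stop codon.

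In the GRCm38.p6 annotation of RefSeq, *Trav9-4* lies at chr14:53676196-53676628, 478 kb before *Traj61*, the first *Traj* segment. The annotation names 130 *Trav* genes, 11 of them *Trav9* genes, and 60 *Traj* segments. Of the *Trav* genes, 20 lie between *Trav9-4* and the *Traj* array, and none of these is a *Trav9* gene. *Trav9-2* lies 564 kb before the array. The genes of the duplicated upstream cluster lie further away, *Trav9d-4* at 1171 kb, *Trav9d-3* at 1234 kb and *Trav9d-2* at 1262 kb. *Trav19*, the target of another amplicon, lies at 309 kb. The position of *Trav9-3* was not given by the table. The *Traj* array itself spans 63.8 kb, and *Traj52* starts 489 kb after *Trav9-4*. These positions, distances and gene counts are those of the reference strain and were not checked for BALB/c.

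Assignment to *Trav9-4* rested on few bases, because the *Trav9* genes are close copies. The last 120 coding bases of *Trav9-4* are shown with the aligned stretch of the other genes, as these bases lead into the junction and carry part of what separates the genes. Sequences are those of GENCODE transcripts matched by gene name or RefSeq synonym, written 5′ to 3′ on the coding strand, and capitals mark bases that differ from *Trav9-4*. They come from the reference strain and not from BALB/c.

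Trav9-4: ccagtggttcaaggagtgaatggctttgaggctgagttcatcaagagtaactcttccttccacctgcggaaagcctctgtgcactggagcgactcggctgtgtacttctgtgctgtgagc
Trav9d-4: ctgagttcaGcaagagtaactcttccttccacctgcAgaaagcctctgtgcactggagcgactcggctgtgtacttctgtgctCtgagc
Trav9-2: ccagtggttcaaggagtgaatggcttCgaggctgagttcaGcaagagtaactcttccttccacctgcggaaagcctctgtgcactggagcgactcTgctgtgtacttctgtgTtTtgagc
Trav9d-2: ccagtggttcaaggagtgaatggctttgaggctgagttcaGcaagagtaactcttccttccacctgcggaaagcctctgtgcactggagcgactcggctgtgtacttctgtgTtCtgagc
Trav9d-3: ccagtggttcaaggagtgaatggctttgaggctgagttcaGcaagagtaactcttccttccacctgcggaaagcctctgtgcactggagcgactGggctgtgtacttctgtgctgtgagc

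Over the whole coding stretch that could be aligned, *Trav9-4* was 97.7% identical to *Trav9d-4* over 306 bases and 97.3% identical to *Trav9-2* over 339 bases. It was 97.9% identical to *Trav9d-2* over 336 bases and 97.3% identical to *Trav9d-3* over 339 bases. The annotated model of *Trav9d-4* lacks bases, which left 33 gap positions, and only its last 89 bases are shown. Within the stretch shown, 3 bases differed in *Trav9d-4*, 5 in *Trav9-2*, 3 in *Trav9d-2* and 2 in *Trav9d-3*.

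The near identity left part of the sequences unassigned to a single gene. *Trav9-4* was listed with at least 1 other V gene in 16456 of 362322 WT sequences (4.54%) and in 6910 of 162645 SKG sequences (4.25%), and these sequences are not members. The most frequent pair was *Trav9-4* or *Trav9d-4*, with 9673 WT and 4356 SKG sequences. A further 13 WT and 5 SKG sequences listed more than 1 *Traj* gene and were left out, as was 1 WT sequence with no *Traj* gene.

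*Trav9-4* made up 21.8% of WT sequences with a single *Traj* gene (95% Wilson interval 21.7 to 21.9%) and 21.1% of SKG sequences (21.0 to 21.2%). Every member was assigned to the allele *TRAV9-4\*01* in both libraries. Of the members, 218279 WT and 109667 SKG sequences were productive, so 3 productive sequences correspond to a share of 0.00137% in WT and 0.00274% in SKG. Exact duplicates had been removed by the authors, so shares count distinct sequences, not reads or cells, and the intervals and floors cover counting error only.

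WT *Trav9-4* was joined mainly to the start of the *Traj* array. The segment used most was *Traj52* with 8.09% of productive sequences, followed by *Traj49* (7.04%), *Traj53* (6.90%), *Traj56* (6.64%) and *Traj50* (6.31%). All 5 belong to the part of the array nearest to the *Trav* genes. The order in SKG was *Traj49* (7.04%), *Traj48* (6.38%), *Traj52* (5.39%), *Traj56* (5.21%) and *Traj53* (5.03%). *Traj49* thus had the same share in both libraries, while *Traj52* and *Traj50* had smaller shares in SKG and *Traj50* was not among its 5 most used.

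**Figure D1:**
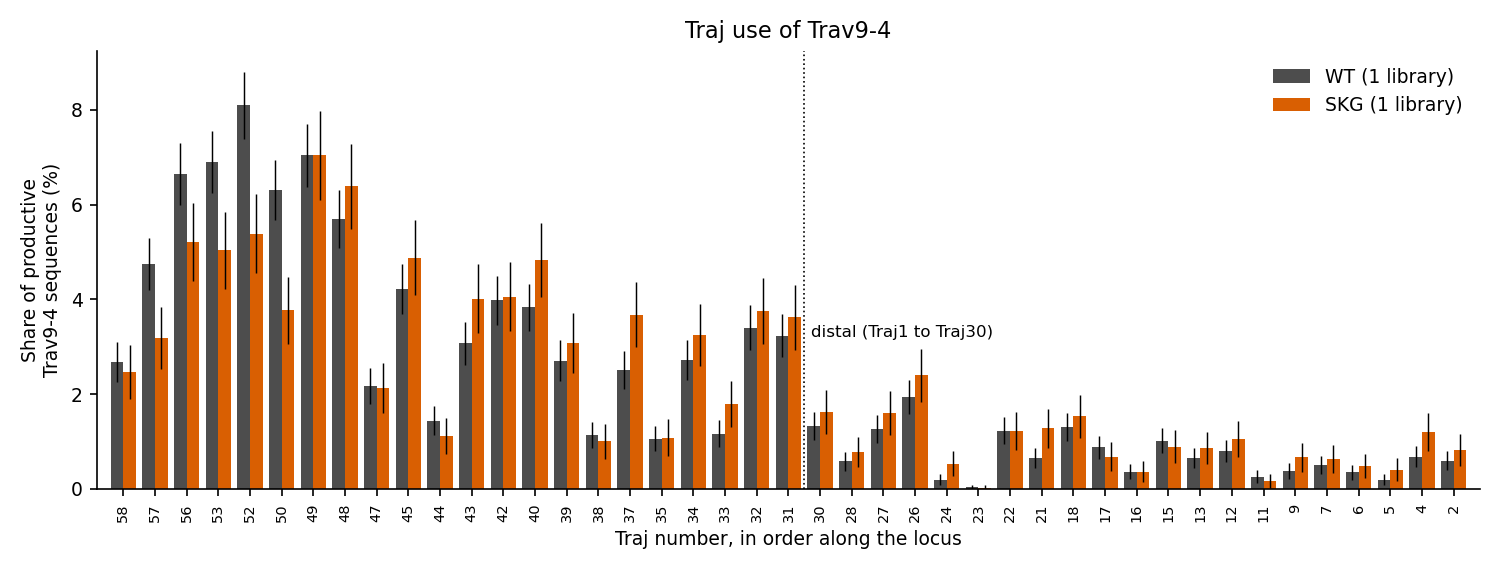
Share of productive *Trav9-4* sequences (%) joined to each *Traj* segment, in order along the locus, in WT (grey) and SKG (orange), 1 library each. Error bars are 95% intervals with the binomial variance multiplied by 38.7, and the dotted line separates distal from proximal segments. WT bars exceed SKG bars from *Traj58* to *Traj50*, with *Traj52* at 8.09% and 5.39%.

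Use was spread over more segments in SKG. The 5 most used segments held 34.98% of WT and 29.05% of SKG productive sequences. The inverse Simpson index, the number of equally used segments that would give the same concentration, was 22.9 in WT and 26.5 in SKG. In all classes 46 segments were joined to *Trav9-4*, and 15 segments (*Traj61*, *59*, *55*, *54*, *51*, *41*, *36*, *29*, *20*, *19*, *14*, *10*, *8*, *3* and *1*) had no sequence. Productive sequences were found for 43 segments. The remaining 3 had unproductive sequences only, *Traj25* with 107 in WT and 31 in SKG, *Traj46* with 1 in SKG and *Traj60* with 1 in WT.

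To compare the libraries with an error that exceeds counting, the variance was scaled by a factor taken from the data. The productive share of *Trav9-4* sequences at 43 segments scattered around a model with segment and library terms 38.7 times more than binomial counting gives, and all standard errors (SE) below include this factor. They cover the scatter of sequences within these libraries and no spread between mice or between libraries of a genotype, so no p-value is given for WT against SKG. Distal segments are *Traj1* to *Traj30* and proximal segments *Traj31* to *Traj61*.

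Distal segments held more of the SKG library than of the WT library. Of productive *Trav9-4* sequences, 33271 of 218279 in WT were distal, a share of 15.2% (95% Wilson interval 15.1 to 15.4%). In SKG 21097 of 109667 were distal, a share of 19.2% (19.0 to 19.5%). The share in the SKG library was 3.99 percentage points higher (SE 0.881, 95% interval 2.27 to 5.72), an odds ratio of 1.32. Without any boundary, the *Traj* numbers of productive sequences averaged 42.3 (SD 12.8) in WT and 39.9 (SD 13.3) in SKG. The average fell by 2.35 (SE 0.303). The median moved from *Traj47* to *Traj43*, with quartiles at 34 and 52 in WT and at 32 and 50 in SKG.

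Unproductive sequences had the same direction. Their distal share was 16.97% in WT and 20.4% in SKG, a difference of 3.40 percentage points (SE 1.34, 95% interval 0.777 to 6.02). Over all classes it was 15.9% and 19.6%. Within a library the functionality classes were compared with p-values over sequences. The productive minus unproductive distal share was −1.73 percentage points in WT (SE 0.810, 95% interval −3.31 to −0.138), which did not pass after adjustment over the 2 libraries (quasi-binomial adjusted p = 0.0664). In SKG it was −1.13 points (SE 1.38, 95% interval −3.84 to 1.58, quasi-binomial adjusted p = 0.414).

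The array was next divided into 7 blocks along the locus. The 2 blocks nearest to the *Trav* genes held less of productive *Trav9-4* in the SKG library. *Traj61* to *Traj54* had 14.1% in WT and 10.9% in SKG (difference −3.20 points, SE 0.745). *Traj53* to *Traj47*, the block used most, had 36.2% and 29.7% (−6.47 points, SE 1.07). The next 3 blocks, in the middle of the array, held more in SKG. *Traj46* to *Traj36* had 22.9% and 26.7% (3.77 points, SE 1.001), *Traj35* to *Traj29* had 12.9% and 15.1% (2.20 points, SE 0.808) and *Traj28* to *Traj18* had 7.21% and 9.38% (2.17 points, SE 0.647).

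The last 2 blocks are given with both functionality classes. In productive sequences *Traj17* to *Traj10* had 3.98% in WT and 4.02% in SKG (difference 0.0319 points, SE 0.451), a ratio of 1.01. *Traj9* to *Traj1* had 2.71% and 4.22% (1.51 points, SE 0.435), a ratio of 1.56. In unproductive sequences the ratios were alike, 1.301 for *Traj17* to *Traj10* (3.78% and 4.91%) and 1.305 for *Traj9* to *Traj1* (3.61% and 4.72%). The difference between the 2 blocks was not tested. Of the blocks nearest to the *Trav* genes, *Traj53* to *Traj47* had 34.7% and 27.95% in unproductive sequences (−6.71 points, SE 1.54).

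**Figure D2:**
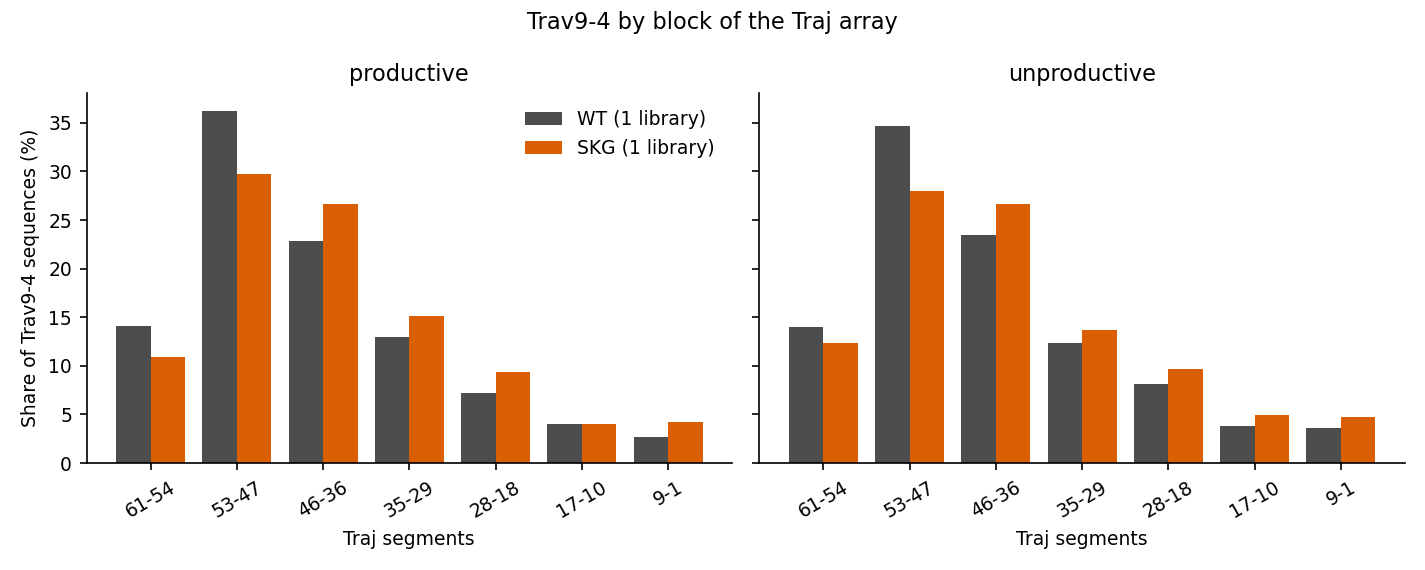
Share of *Trav9-4* sequences (%) in 7 blocks of *Traj* segments for productive (left) and unproductive (right) sequences, in WT (grey) and SKG (orange), 1 library each. In productive sequences the first 2 blocks are lower in SKG (36.2% against 29.7% for *Traj53* to *Traj47*) and *Traj17* to *Traj10* is level at 3.98% and 4.02%.

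Single segments were compared by the ratio of SKG to WT share, among the 31 segments with at least 1% of productive *Trav9-4* sequences in either library. A segment was called when this ratio passed 1.5-fold, a description without a test. Of the 31 segments, 3 were called higher (9.68%) and 2 lower (6.45%). Over 291 pairs of a V gene and a *Traj* segment chosen in the same way in all 6 libraries, 10.7% were called higher and 13.7% lower. *Trav4d-3*, which was listed in the *Trav19* libraries and had 2176 WT and 3423 SKG productive sequences, gave 15 of the 31 higher calls, 7 of these against a WT count of 0, and 14 of the 40 lower calls. Without *Trav4d-3* and the pairs of *Trav9-4* itself, a setting added after these values were seen, 5.70% of 228 pairs were called higher and 10.5% lower. The *Trav9-4* share of higher calls lay between these backgrounds and its share of lower calls lay below both. The median log2 ratio was 0.16 over the 31 segments and 0.06 over the 291 pairs.

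The 3 segments called higher lie in different parts of the array. *Traj21* had 0.652% in WT and 1.28% in SKG (log2 ratio 0.98, SE 0.34), *Traj4* had 0.682% and 1.20% (0.81, SE 0.34), and *Traj33* had 1.17% and 1.797% (0.62, SE 0.27). *Traj33* is the segment of the invariant TCRα of mucosal-associated invariant T cells, which pair it with another V gene. *Traj37* stayed just inside the limit, at 2.51% in WT and 3.68% in SKG (0.55, SE 0.18).

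The segments called lower are neighbours in the *Traj53* to *Traj47* block. *Traj50*, at chr14:54167590-54167652, had 6.31% in WT and 3.77% in SKG (log2 ratio −0.74, SE 0.16). *Traj52*, at chr14:54165316-54165381, had 8.09% and 5.39% (−0.59, SE 0.13), just past the limit. With sequences that list *Trav9-4* among any genes its log2 ratio was −0.576 and it was not called. *Traj57* stayed just inside the limit at 4.75% and 3.19% (−0.57, SE 0.17), and *Traj53* followed with 6.90% and 5.03% (−0.46, SE 0.14). *Traj49* and *Traj48*, next to *Traj50*, had log2 ratios of 0.00 (SE 0.12) and 0.17 (SE 0.13). The next segments downstream of *Traj50* were thus not lower in SKG in productive sequences. In unproductive sequences *Traj49* was at −0.37 (SE 0.20) and *Traj48* at 0.04 (SE 0.19).

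*Traj18*, the segment of the invariant TCRα of natural killer T cells, which join it to *Trav11*, took 1.31% of productive *Trav9-4* sequences in WT and 1.54% in SKG (log2 ratio 0.23, SE 0.27). With the scaled variance this difference was smaller than its SE. Distal segments with at least 1% were higher in SKG in 7 of 9 cases (median log2 ratio 0.31), and proximal segments in 13 of 22 (median 0.03). Over all pairs, distal pairs were higher in 85 of 124 (median 0.19) and proximal pairs in 82 of 167 (median −0.01).

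The ratios of productive and unproductive sequences were not alike at every segment. Of the 31 segments, 23 had the same sign in both classes. *Traj52* was lower in both, with an unproductive log2 ratio of −0.63 (SE 0.19). *Traj33* and *Traj21* turned to −0.56 (SE 0.45) and −0.31 (SE 0.60) in unproductive sequences, and the higher share in SKG was not seen there. The unproductive log2 ratio of *Traj50* was −0.25 (SE 0.23) and that of *Traj4* was 0.10 (SE 0.49), both nearer to 0 than in productive sequences.

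**Figure D3:**
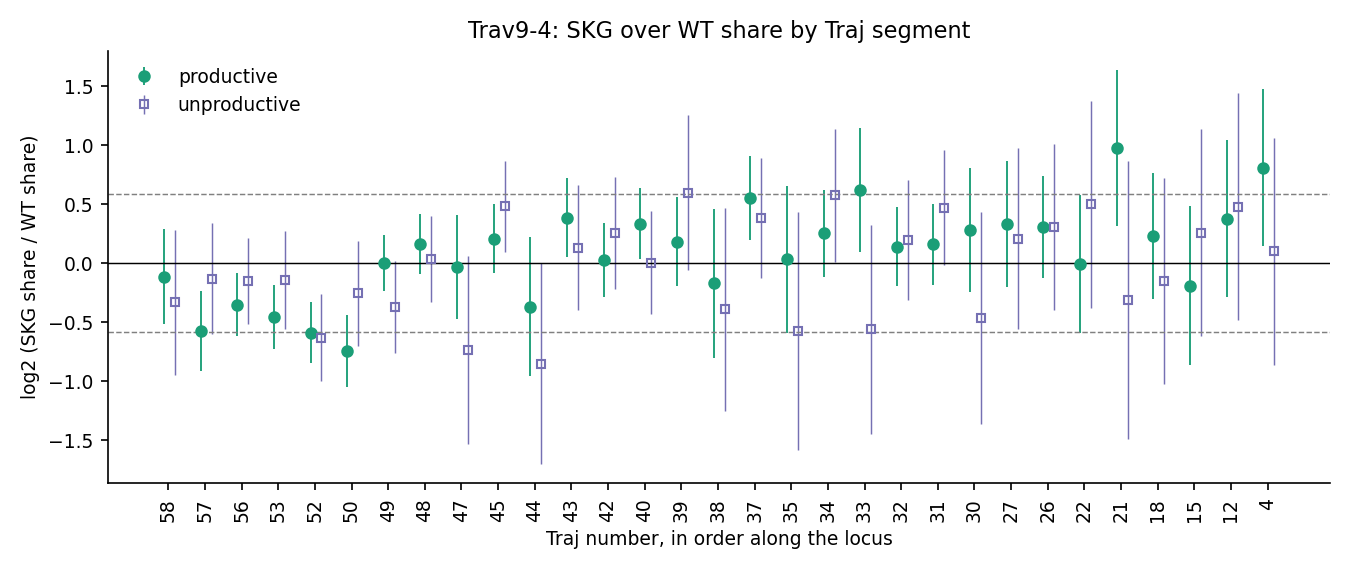
Log2 ratio of SKG to WT share for the 31 *Traj* segments with at least 1% of productive *Trav9-4* sequences in either library, in order along the locus. Filled circles are productive and open squares unproductive sequences, bars are 95% intervals with the scaled variance, and dashed lines mark 1.5-fold. Productive ratios run from −0.74 at *Traj50* to 0.98 at *Traj21*.

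Values of the same segments with 5 other *Trav9* genes and *Trav19* are given without a test, for genes in which the segment had at least 1% in either library. *Traj52* was lower in SKG in 5 of 5 such genes (log2 ratio −1.10 to −0.52) and *Traj50* in 6 of 6 (−0.81 to −0.33). *Traj21* was higher in 5 of 5 (0.22 to 0.83) and *Traj4* in 5 of 5 (0.05 to 0.47). *Traj33* was higher in 2 of 5, from −0.31 (SE 0.21) with *Trav9-3* to 0.85 (SE 0.41) with *Trav19*. For *Traj21*, *Traj4* and *Traj33*, the log2 ratio with *Trav9-4* (0.98, 0.81 and 0.62) was above those of the other *Trav9* genes so included. These segments were named for their high ratios with *Trav9-4*, which favours this order, so it is no trait shown for *Trav9-4*. At *Traj21* the gap was small: 0.98 (SE 0.34) against 0.83 (SE 0.30) with *Trav9-2* and 0.82 (SE 0.33) with *Trav9d-4*. All *Trav9* genes were measured in the same 2 libraries.

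The productive share of *Trav9-4* was higher in SKG. It was 63.1% in WT and 70.4% in SKG, a difference of 7.31 percentage points (SE 0.882, 95% interval 5.58 to 9.04). The difference was spread over the array: of 43 segments that held 200 or more sequences per library, 37 had a higher productive share in SKG. The median over these segments was 62.0% in WT and 70.5% in SKG. With each segment weighted as in WT, the SKG share was 70.2%, against 70.4% as measured.

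The productive share differed most between libraries at *Traj5*, *Traj33* and *Traj21*. *Traj5* went from 42.8% of 1002 sequences in WT to 67.6% of 664 in SKG (difference 24.8 points, SE 14.9). *Traj33* went from 56.3% of 4524 to 80.3% of 2455 (24.0 points, SE 6.78). *Traj21* went from 59.3% of 2401 to 83.2% of 1691 (23.9 points, SE 8.42). These 3 segments were picked for these values after they were seen, and no test is given for them.

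Averaged over the 2 libraries, the highest productive shares were at *Traj39* (74.9% in WT, 75.7% in SKG), *Traj24* (70.1% and 80.2%) and *Traj28* (71.4% and 78.9%). *Traj23* stood apart at the other end. It was joined to *Trav9-4* in 2170 WT and 1064 SKG sequences, of which 4.01% and 2.73% were productive. The next lowest averages were those of *Traj5* (42.8% and 67.6%) and *Traj6* (50.5% and 64.9%). Both were lower in WT than in SKG, and in SKG both also lay below the median of 70.5%. In SKG the second lowest share was 57.5% at *Traj16*, and the highest was that of *Traj21*. The low share at *Traj23* was not particular to *Trav9-4*: in the other V genes with at least 50 sequences of this segment it lay between 0% and 13.0%, with a median of 2.78% over 15 combinations of V gene and library. The 0% values were 0 of 254 WT and 0 of 128 SKG sequences of *Trav4d-3*, which allow shares of up to 1.18% and 2.34%. Over all classes *Traj23* thus had fewer sequences than *Traj21* (2401 in WT and 1691 in SKG), and it took 0.0399% of productive sequences in WT and 0.0264% in SKG.

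**Figure D4:**
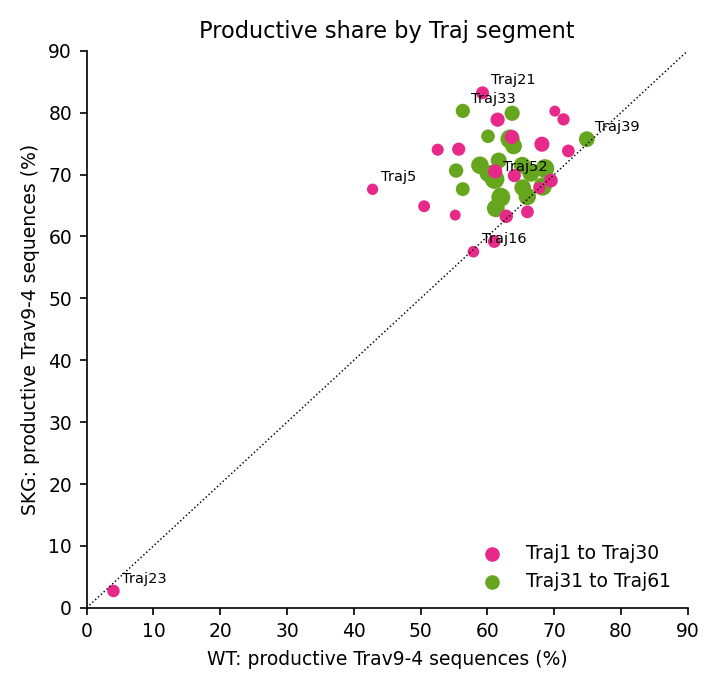
Productive share of *Trav9-4* sequences (%) at each of 43 *Traj* segments that held 200 or more sequences per library, WT on the horizontal and SKG on the vertical axis, with larger points for more sequences and the dotted line marking equal shares. Distal segments are pink and proximal segments green. Of the 43 points, 37 lie above the line, and *Traj23* lies alone at 4.01% and 2.73%.

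*Trav9-4* reached distal segments less than any other *Trav9* gene that had at least 1000 productive sequences in each library. The other 5 genes had distal shares in WT of 26.3% (*Trav9-3*), 29.1% (*Trav9-2*), 57.2% (*Trav9d-2*), 57.3% (*Trav9d-3*) and 60.7% (*Trav9d-4*). The nearest was *Trav9-3*, and the *Trav9-4* minus *Trav9-3* share was −11.1 percentage points in WT (SE 0.738, quasi-binomial adjusted p = 4.59e-51) and −10.3 points in SKG (SE 1.05, adjusted p = 1.13e-22). Against *Trav9-2* the difference was −13.9 points in WT (SE 0.891) and −18.6 points in SKG (SE 1.43). All 10 differences passed after adjustment over the 10, in tests over the sequences of 1 library. *Trav19*, which was amplified in other libraries, had 4.33% in WT and 7.39% in SKG.

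The 2 genes with *Traj* profiles most like that of *Trav9-4* were *Trav9-3* and *Trav9-2*. Likeness was measured as the overlap of the profiles, the sum over 45 segments of the smaller of the 2 shares. In WT the overlap was 82.5% with *Trav9-3* and 81.6% with *Trav9-2*, and in SKG 84.9% and 79.0%. *Trav9-4* in WT and *Trav9-4* in SKG overlapped by 88.7%, more than *Trav9-4* with any other V gene within a library. *Trav9d-4*, whose name and sequence are close to those of *Trav9-4*, overlapped with it by 49.7% in WT and 52.3% in SKG.

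The sequences that could be either *Trav9-4* or *Trav9d-4* lay between the shares of these genes. Of their productive sequences 36.2% were distal in WT (95% Wilson interval 35.04 to 37.4%) and 50.4% in SKG (48.6 to 52.2%). For *Trav9-4* or *Trav9d-2* the distal shares were 31.8% and 31.2%.

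The distal shift from WT to SKG was set beside that of 6 other genes. As a change in log odds it was 0.281 (SE 0.0603) for *Trav9-4*, 0.391 for *Trav9-2*, 0.160 for *Trav9-3*, 0.212 for *Trav9d-2*, 0.231 for *Trav9d-3*, 0.232 for *Trav9d-4* and 0.567 for *Trav19*. All 7 genes moved the same way. *Trav9-4* minus *Trav19* was −0.286 (95% interval over sequences −0.561 to −0.0106), and *Trav9-4* minus *Trav9-3* was 0.121 (−0.0217 to 0.264). The intervals of the other 4 differences held 0, as did that against *Trav9-3*. These intervals are not adjusted for the comparison with 6 genes. Sequences are their units, so no difference in shift between genes was tested over mice, that against *Trav19* included.

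**Figure D5:**
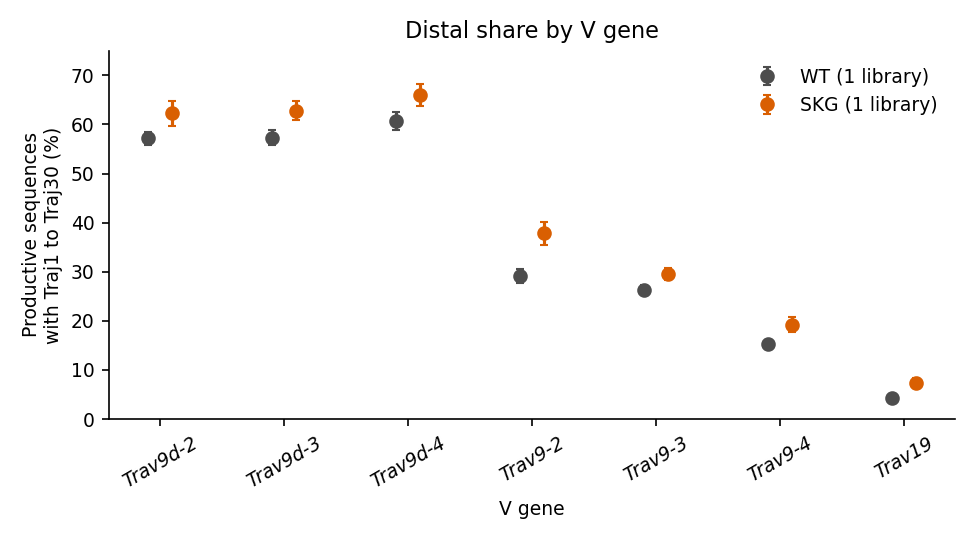
Distal share (*Traj1* to *Traj30*) of productive sequences (%) for 6 *Trav9* genes and *Trav19* in WT (grey) and SKG (orange), 1 library each for the *Trav9* genes and 1 each for *Trav19*. Bars are 95% intervals with the variance scaled by each gene's own factor. *Trav9-4* (15.2% and 19.2%) lies below the other *Trav9* genes in both libraries and above *Trav19* (4.33% and 7.39%).

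The change of the productive share was set beside that of the same 6 genes. As a change in log odds it was 0.330 (SE 0.0409) for *Trav9-4*. It lay between 0.234 and 0.401 for *Trav9-2*, *Trav9-3*, *Trav9d-3*, *Trav9d-4* and *Trav19*, and the interval of each difference from *Trav9-4* held 0. *Trav9d-2* went the other way, from 68.2% productive in WT to 65.7% in SKG, and the change of *Trav9-4* was 0.441 above that of *Trav9d-2* (95% interval over sequences 0.309 to 0.573). Each value rests on 1 library per genotype, and this difference was not tested over mice.

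The J allele was constant for most segments. Of the 46 segments joined to *Trav9-4*, 36 had 1 allele assignment and 10 had several, over all classes. *Traj32* and *Traj35* were assigned to their *\*02* alleles in 99.97% and 99.6% of WT sequences. *Traj31* was split in both libraries, with *TRAJ31\*02* in 69.5% of WT and 69.4% of SKG sequences, *TRAJ31\*01* in 9.48% and 7.88%, and both alleles listed in 21.1% and 22.7%.

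Allele assignments differed between libraries beyond counting error for *Traj43*, *Traj9* and *Traj21*, which were picked after their values were seen. The same held for *TRAJ31\*01* (95% Wilson interval 8.94 to 10.04% in WT and 7.22 to 8.60% in SKG). *TRAJ43\*01* took 84.1% of 10495 WT sequences (95% Wilson interval 83.4 to 84.8%) and 76.1% of 5901 SKG sequences (74.97 to 77.1%), with both alleles listed in 14.9% and 21.7%. *TRAJ9\*01* took 88.6% of 1583 WT sequences (86.9 to 90.04%) and 93.2% of 989 SKG sequences (91.5 to 94.6%), and *TRAJ9\*02* 0.316% and 2.12%. *TRAJ21\*02* took 2.58% of WT and 0.237% of SKG sequences. These intervals cover counting error only and leave out the variance factor used for the comparisons above, so they are narrower. The part of sequencing error and trimming at the junction in these assignments was not tested.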

How the data were processed

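*Traj* use of *Trav9-4* was taken from the deposited lists of the *Trav9* libraries, 1 for WT and 1 for SKG, grouped by the labels. According to the paper's methods, RNA of sorted pre-selection DP cells was reverse transcribed and amplified between *Trav* and constant region primers. The labels name genomic DNA. The authors obtained clonal sequences with MiXCR, trimmed primers with cutadapt 1.13 (also in the submitters' processing notes), removed exact duplicates and ran IMGT/HighV-QUEST to name the V and J genes. Each deposited list holds, for each sequence, an identifier, a functionality class, and V and J assignments, and no read number. The 6 lists held 249693 to 1587280 sequences.

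Sequences were counted per *Traj* segment. Shares have 95% Wilson intervals. Quasi-binomial comparisons multiplied the binomial variance by a factor for overdispersion, the Pearson statistic over its degrees of freedom from a logistic fit of productive status on segment and library (segments holding 50 or more sequences per library), two-sided with a normal approximation over sequences. The factor was 25.9 to 40.1 for the *Trav9* genes and 99.8 for *Trav19*. True changes of productive status at individual segments enlarge it, and rearrangements with sequences in both classes would make it too small for *Traj* shares. It was taken from both libraries together, also where it scales a comparison within 1 library. P-values are printed only for comparisons within a library, adjusted by Benjamini-Hochberg within each family, because sequences of 1 library are no replicates of a genotype. They treat sequences as the units. Log2 ratios had 0.5 added to each count. The calculations were tested on simulated data.

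Named segments were the 5 most used in each library, the 4 highest and 4 lowest ratios among segments of at least 1%, *Traj18*, *Traj33*, and the 3 highest and 3 lowest productive shares among segments holding 200 or more sequences per library. Other genes were the *Trav9* genes with at least 1000 productive sequences in each library, *Trav19* and the 2 most alike profiles. The members and lists were chosen with earlier results of these data known. Alternatives were other functionality classes, V assignment rules, distal boundaries, minimum shares, added counts and factors. Coordinates are those of RefSeq on GRCm38.p6, the build that mm10 in the labels names, and no genome sequence was read. Python 3.11.15, numpy 2.4.6, pandas 2.3.3, scipy 1.17.1, Biopython 1.88 and matplotlib 3.10.9 were used.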

Additional observations from a re-analysis of the deposited data

Results flagged for a closer look

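The change of the productive share from WT to SKG was 0.441 higher in log odds for *Trav9-4* than for *Trav9d-2*, as the share went from 63.1% to 70.4% with *Trav9-4* and from 68.2% to 65.7% with *Trav9d-2* in the same pair of libraries. It is listed because 2 genes moved in opposite directions under the same contrast. With 1 library per genotype the difference was not tested over mice.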

How the results depend on the processing

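The SKG minus WT differences in distal share, mean *Traj* number and productive share of *Trav9-4* kept their direction under every alternative run. Some alternatives could not change them. All members had the same allele assignment, and the other minimum counts for the factor gave the same SE. The first-listed *Traj* gene added only 13 WT and 5 SKG sequences. The lower distal share of *Trav9-4* against the other *Trav9* genes within a library also kept its direction. It stayed on its side of the 0.05 limit of the scaled comparison over sequences. The difference in distal shift changed sign in 2 cases. It went to −0.00748 (SE 0.103) against *Trav9-3* with unproductive sequences only. Against *Trav9d-2* it went to −0.0263 (SE 0.0870) with *Traj1* to *Traj40* counted as distal. Among the values further from 0 than in the main setting were −0.520 (SE 0.183) against *Trav19* with *Traj1* to *Traj20* as distal and −0.210 (SE 0.0757) against *Trav9-2* with *Traj1* to *Traj40*. These SE are over sequences and not over mice. The SKG minus WT share of *Trav9-4* in the *Trav9* libraries was −0.725 percentage points over all classes and −0.495 in productive sequences. The number of segments past 1.5-fold depended on the choices. Over all classes 1 was higher (*Traj21*) and 1 lower (*Traj52*). A minimum share of 0.5% gave 5 higher and a minimum of 2% gave 0 higher. Sequences that list *Trav9-4* among any genes gave 2 higher (*Traj21* and *Traj4*) and 1 lower (*Traj50*). Of the 6 segments called in unproductive sequences, 1 was among the 5 called in productive ones, and *Traj33* (−0.56) and *Traj21* (−0.31) changed sign there. The cause was not tested. Segments with few sequences had wide errors, such as an SE of 14.9 points for the difference in productive share at *Traj5*. The WT *Trav9* list held 1587280 sequences and the SKG list 739330, and depth in reads is not known from the lists. With 1 library per genotype the spread between mice is unmeasured. No paired analysis was possible because each genotype and amplicon had 1 library.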
